A study of Mus musculus with 8 samples.

Results

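The 8 transcription factors described here, which mark organ identity, were followed by name in one gene table, in all 8 of its libraries: Foxa2, Foxa3 and Onecut1 for the liver, Nkx2-5, Tbx5, Tbx20 and Gata4 for the heart, and Pax8 for the kidney. All 8 were found among the 27179 genes of the table. The choice used gene names, with knowledge of the organ each factor is known for, and earlier results of these data were known. That a factor was high in its own organ is therefore a description of the choice.

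The study took 4 mouse organs, brain, heart, kidney and liver, and compared tissue that was flash frozen with formalin-fixed tissue in paraffin blocks (FFPE). Total RNA was sequenced from 1 library for each organ and each preservation, which gives 2 libraries per organ, 1 frozen and 1 FFPE. FFPE tissue was first freed of paraffin, and RNA was isolated with Trizol and sheared by ultrasound in the PIXUL instrument. The strain, age and genotype of the mice, how many animals were used, and whether the frozen and the FFPE piece of an organ came from one animal are not stated by the labels. No p-value can therefore be said to measure the spread between animals. An organ difference is repeated only by its frozen and its FFPE library. A p-value measures how differently the organs changed between these preparations, a spread that may hold preservation, tissue piece and technical differences. No group carried a treatment other than the preservation.

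Foxa2 and Foxa3 are forkhead factors that bind and open chromatin at liver genes, and Onecut1, also called HNF6, is a cut-homeodomain factor of hepatocytes and bile duct cells. In the heart, the homeodomain factor Nkx2-5, the T-box factors Tbx5 and Tbx20 and the zinc finger factor Gata4 bind together at genes of cardiac muscle and conduction, and dominant mutations in several of them cause congenital heart disease. Pax8 is a paired-box factor of the kidney tubule and the thyroid, and in kidney development it acts together with its relative Pax2. 

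Promoters were read from RefSeq (GRCm38.p6, the build called mm10 in the submitters' processing notes), from 250 bases before to 50 after a start site. They covered 6 of the 8 factors with 8 entries, 3 of them for Foxa2. Each was searched on both strands for 7 short motifs of the factor families studied here, as a description of the letters only, and against all 32851 promoters of this length. The forkhead motif TGTTTNC is held by 20.5% of those promoters. The Onecut motif ATTGAT is held by 7.54% of them and the HNF1 motif, GTTAAT, by 7.1%. For GATA factors the letters were NGATAA, found in 25.3% of promoters. NKX2 factors were searched as TNAAGTG, found in 11.5%. The T-box letters AGGTGT occur in 13.7%, and the PAX letters GCGTGAC in 2.09%. The sequences below show the Foxa2 entries with a match, the most read liver factor, Foxa3, and the kidney factor Pax8. Each lies on the minus strand and is written 5′ to 3′ in the direction of the gene, at chr2:148046920-148047219, chr2:148045415-148045714, chr7:19023490-19023789 and chr2:24475550-24475849. Capitals mark a motif match.
Foxa2, outer start: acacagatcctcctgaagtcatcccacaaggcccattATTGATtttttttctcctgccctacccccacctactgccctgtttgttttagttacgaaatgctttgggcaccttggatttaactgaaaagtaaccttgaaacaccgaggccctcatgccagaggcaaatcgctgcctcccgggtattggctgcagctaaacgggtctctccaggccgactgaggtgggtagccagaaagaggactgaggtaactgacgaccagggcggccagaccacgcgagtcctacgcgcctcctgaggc
Foxa2, inner start: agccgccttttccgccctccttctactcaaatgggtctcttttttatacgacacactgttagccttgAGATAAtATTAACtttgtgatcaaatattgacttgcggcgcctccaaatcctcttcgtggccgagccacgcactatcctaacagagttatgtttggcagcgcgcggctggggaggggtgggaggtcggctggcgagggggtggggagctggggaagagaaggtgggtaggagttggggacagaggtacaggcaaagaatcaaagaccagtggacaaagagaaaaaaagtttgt
Foxa3: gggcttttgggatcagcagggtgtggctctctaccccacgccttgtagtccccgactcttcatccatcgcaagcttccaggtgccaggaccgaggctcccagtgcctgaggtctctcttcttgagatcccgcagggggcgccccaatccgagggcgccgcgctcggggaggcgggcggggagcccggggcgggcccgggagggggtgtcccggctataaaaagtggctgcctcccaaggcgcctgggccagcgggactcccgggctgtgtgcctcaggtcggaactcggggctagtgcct
Pax8: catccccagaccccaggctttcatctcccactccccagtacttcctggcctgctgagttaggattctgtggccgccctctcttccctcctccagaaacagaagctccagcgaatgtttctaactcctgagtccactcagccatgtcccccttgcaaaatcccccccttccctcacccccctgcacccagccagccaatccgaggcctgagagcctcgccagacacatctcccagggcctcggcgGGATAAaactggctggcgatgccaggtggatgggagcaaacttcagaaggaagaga

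The outer Foxa2 start held an Onecut motif, ATTGAT, at position -213 from the start site. The inner Foxa2 start held a GATA motif at position -183 and, on the reverse strand, an HNF1 motif at position -176, which lie beside each other without overlap. In Pax8 a GATA motif stood at position -6. None of the 7 motifs was matched in the entries of Foxa3, Onecut1, Nkx2-5 and Tbx20 or in the middle start of Foxa2. The CpG content differed: the observed over expected CpG ratio was 0.951 in Onecut1 and 0.745 in Tbx20, against 0.288 in Pax8 and 0.466 in Nkx2-5, with a median of 0.384 over all promoters.

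The libraries held 10180972 to 20526813 reads over all genes. The deposited values are log2 CPM (the usual per-library abundance unit of RNA sequencing) from which whole reads were recovered. They use library sizes scaled by factors of 0.4998 to 1.759 of the read total. On that scale 3 reads, used as the floor below which a level is not told from 0, equal between 0.119 CPM (frozen brain) and 0.292 CPM (frozen heart). The labelled organs carried their own markers: the summed level of 7 hepatocyte genes was 63420 and 56080 CPM in frozen and FFPE liver and at most 333.8 CPM elsewhere. For 6 cardiomyocyte genes it was 27590 and 25430 CPM in heart against at most 299.3 CPM elsewhere, and for 7 nephron tubule genes 7753 and 5903 CPM in kidney against at most 12.9 CPM elsewhere. The pieces of tissue were not alike within an organ. The 4 atrial marker genes summed to 18.0 CPM in frozen heart, with Sln and Myl7 at 0 reads, and to 854 CPM in FFPE heart, while 3 ventricular genes summed to 5213 and 2587 CPM. In brain, 7 cerebellar genes summed to 66.1 CPM in the frozen library, with Gabra6 and Pcp2 at 0 reads, and to 428 CPM in the FFPE library.

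**Figure D1:**
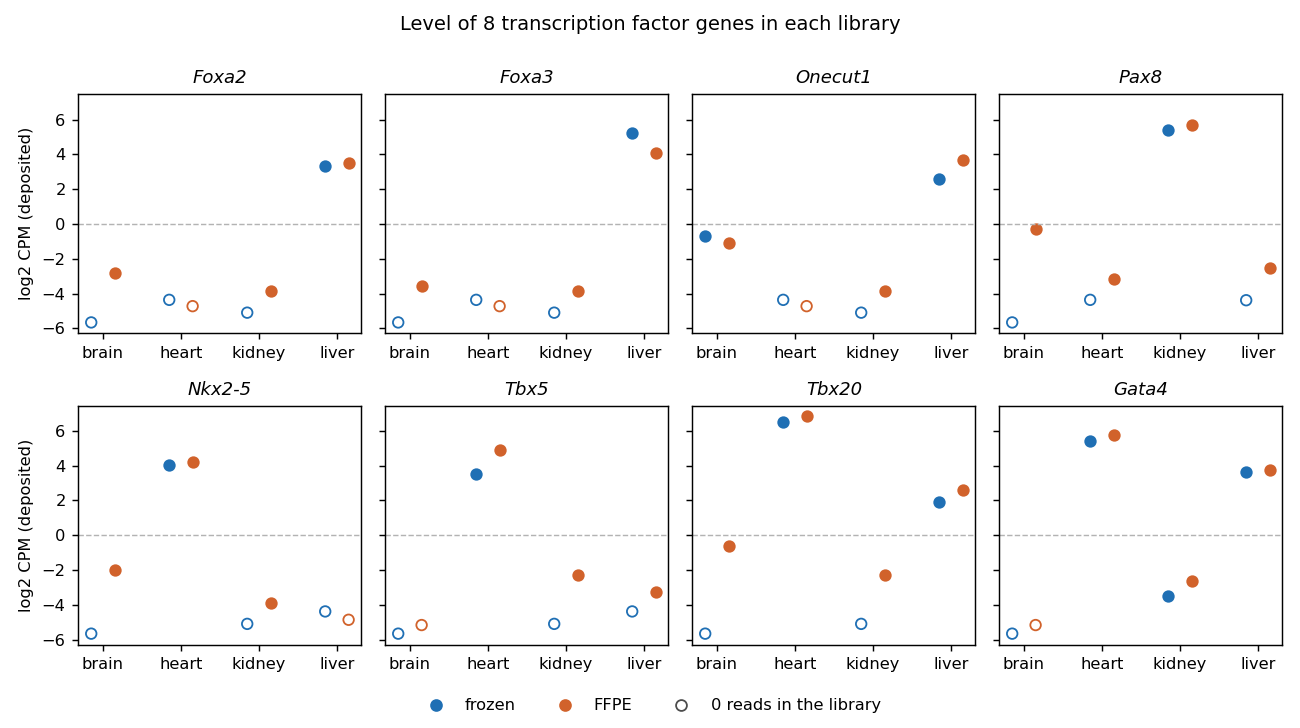
Level of the 8 factors in each library, as the deposited log2 CPM (y axis) by organ (x axis), 1 panel per factor, with frozen libraries in blue, FFPE libraries in orange, libraries at 0 reads as open circles and a dashed line at 1 CPM. Each factor is highest in both libraries of its own organ, and Gata4 and Tbx20 are the factors with a second organ, the liver, above 1 CPM.

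For each of the 8 factors both libraries of its own organ lay above all 6 others, without overlap. All 8 passed the filter of 1 CPM in at least 2 libraries, and 6 of them, all but Tbx20 and Gata4, passed only through the 2 libraries of their own organ. Those 6 had to differ. The counts of calls, and the p-values of own-organ differences given below, are therefore a description. In limma, at a Benjamini-Hochberg adjusted p under 0.05 over 15819 genes, heart minus brain was called higher for 4 factors (24.7% of all genes tested) and lower for 1 (33.3%). Kidney minus brain was called higher for 2 (27.2%) and lower for 1 (29.4%). Liver minus brain was called higher for 5 (30.8%) and lower for 0 (36.3%), with 0 lower at an unadjusted p under 0.05 as well. Outside the factors' own organs, these counts hold Onecut1, higher in brain than in heart and kidney, Gata4, called higher in kidney than in brain from reads at or under the floor, and Tbx20 and Gata4, higher in liver than in brain. Heart minus kidney was called higher for 4 (18.8%) and lower for 1 (22.2%). Heart minus liver was called higher for 4 (27.5%) and lower for 3 (25.6%), and kidney minus liver higher for 1 (23.2%) and lower for 5 (18.0%). The 5 factors lower in kidney than in liver were the 3 liver factors with Tbx20 and Gata4. The fitted size of a difference against an organ near 0 depends on what is added before the log. The 24 differences of a factor's own organ from another ran from 1.91 to 11.01 on the deposited log2 scale and from 1.84 to 6.55 with 1 CPM added, where 21 of them shrank by over 1.5 times.

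Foxa2 (Entrez 15376, chr2:148042877-148046969, minus strand) was read 103 times in frozen liver and 166 times in FFPE liver, which is 9.89 and 11.4 CPM. FFPE brain held 2 reads and FFPE kidney 1, and the other 4 libraries held 0. The liver libraries were close to each other and far above the rest. Over frozen brain, heart and kidney, frozen liver was at least 83.1-fold, 33.8-fold and 56.3-fold higher. Such bounds use the floor of 3 reads in the other library and leave out the counting error of the own organ. In the fit, liver exceeded brain by 7.66 ± 0.93 (SE, log2 scale with the deposited added read, limma adjusted p = 1.06e-04), with kidney and heart in no order with brain beyond their spread. Foxa2 passed the filter through liver alone, so that p-value is a description.

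Foxa3 (Entrez 15377, chr7:19013284-19023538, minus strand), which with Foxa2 and Foxa1 makes up the hepatic forkhead family, had 385 reads in frozen liver and 249 in FFPE liver, or 37.0 and 17.2 CPM. Outside the liver it had 1 read in FFPE brain, 1 in FFPE kidney and 0 in the other 4 libraries. The 2 liver libraries differed from each other more than for Foxa2, and both lay far above every other library. Frozen liver was at least 311-fold above frozen brain, 126-fold above heart and 211-fold above kidney. The fitted liver minus brain difference was 9.27 ± 0.93 (SE, log2, limma adjusted p = 3.41e-05), a description for a factor that passed the filter through liver alone.

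Onecut1 (Entrez 15379, chr9:74861921-74891781, plus strand) had 63 and 186 reads in frozen and FFPE liver, which is 6.05 and 12.8 CPM. It was also read in brain, 15 times in the frozen and 8 times in the FFPE library, at 0.595 and 0.447 CPM. Heart held 0 reads in both libraries, and kidney 0 in the frozen and 1 in the FFPE library. The order was liver, then brain, then kidney and heart without a difference between those last organs (limma adjusted p = 0.968). Liver stood 10.2-fold over brain in the frozen libraries (95% counting interval 5.72 to 19.2) and 28.7-fold in the FFPE libraries (14.3 to 67.4). The fitted difference was 4.03 ± 0.76 (SE, log2, limma adjusted p = 0.0014), a description since Onecut1 passed the filter through liver alone. Brain was above heart by 3.65 ± 0.76 (limma adjusted p = 0.00319) and above kidney by 3.60 ± 0.76 (0.00344), a call that was lost when 1 CPM was added before the log, where heart minus brain was -0.60 (limma adjusted p = 0.0943) and kidney minus brain -0.57 (0.112). In the annotation Onecut1 shares exon bases with the long non-coding RNA Gm20649 on the same strand, which is not a row of the table.

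Nkx2-5 (Entrez 18091, chr17:26838664-26845009, minus strand), one of the earliest factors of heart muscle, had 168 reads in frozen heart and 243 in FFPE heart, at 16.4 and 18.4 CPM. FFPE brain held 4 reads and FFPE kidney 1, and the other 4 libraries 0. Its 2 heart libraries were the closest pair of the heart factors. Frozen heart was at least 138-fold, 93.3-fold and 56.9-fold above frozen brain, kidney and liver, and FFPE heart was 82.5-fold over FFPE brain (31.8 to 305). The fitted heart minus brain difference was 7.95 ± 1.04 (SE, log2) and heart minus liver 8.74 ± 1.04. Nkx2-5 passed the filter only through the heart, so these differences are a description.

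Tbx5 (Entrez 21388, chr5:119832668-119885219, plus strand), the T-box factor mutated in Holt-Oram syndrome and enriched in atria and the conduction system, had 117 reads in frozen heart and 396 in FFPE heart, or 11.4 and 30.03 CPM. FFPE kidney held 4 reads, FFPE liver 1, and the other 4 libraries outside the heart 0. The heart libraries lay far apart from each other and still did not meet any other library. Frozen heart was at least 95.9-fold above brain, 65.0-fold above kidney and 39.6-fold above liver. The fitted heart minus brain difference was 9.62 ± 0.81 (SE, log2), which rests on the added read in brain, and 4.29 with 1 CPM added.

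Tbx20 (Entrez 57246, chr9:24718138-24774303, minus strand), a T-box factor of heart muscle and endocardium, had the most reads of the 8 factors, 924 in frozen and 1494 in FFPE heart, at 90.1 and 113 CPM. The liver came next, with 38 and 88 reads at 3.65 and 6.06 CPM. FFPE brain had 11 reads (0.614 CPM) and FFPE kidney 4, while frozen brain and kidney had 0. Heart, liver and the remaining organs formed steps that did not overlap, and brain and kidney did not differ (limma adjusted p = 0.675). Heart stood 24.7-fold over liver in frozen tissue (17.9 to 35.1) and 18.7-fold in FFPE tissue (15.1 to 23.4). The fitted heart minus liver difference of 4.41 ± 1.02 (SE, log2, limma adjusted p = 0.00631) lost its call without frozen heart (3.15, 0.0878) and without FFPE liver (3.41, 0.0550). Liver exceeded brain by 5.39 ± 1.02 (0.0015) and kidney by 5.94 ± 1.02 (0.00179). Liver minus brain was 3.53 without frozen brain (limma adjusted p = 0.0111) and 2.17 with 1 CPM added. The gene's exons, merged over its transcripts, cover 12.0 kb, the longest of the 8, so reads cannot be compared with the other factors without its length.

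Gata4 (Entrez 14463, chr14:63198922-63271692, minus strand), a zinc finger factor of heart muscle that is also known from liver sinusoidal cells, had 442 reads in frozen heart and 718 in FFPE heart, or 43.1 and 54.4 CPM. In liver it had 129 and 193 reads, or 12.4 and 13.3 CPM. Kidney held 1 and 3 reads and brain 0 in both libraries. Heart and liver were the only organs above the floor and did not overlap. Heart was 3.48-fold over liver in frozen tissue (2.85 to 4.27) and 4.09-fold in FFPE tissue (3.49 to 4.83), a fitted difference of 1.91 ± 0.51 (SE, log2, limma adjusted p = 0.0122). That call was lost without any one of the 4 heart and liver libraries: without frozen heart (1.84, adjusted p = 0.0892), FFPE heart (1.99, 0.0737), frozen liver (2.14, 0.0572) or FFPE liver (1.68, 0.125). It was also lost with the read total as library size (1.53, 0.056). Liver minus brain was 9.10 ± 0.51 (1.34e-06). Kidney minus brain was called at 0.00422 although both organs lay at or under the floor, so no fold is given.

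Gata4 and Tbx20 in liver were set against markers of other cell types. The cardiomyocyte genes summed to 1.54 CPM in frozen liver and 5.93 CPM in FFPE liver, with Mb at 0 reads in the frozen library, against 27590 and 25430 CPM in heart. Ventricular genes were at 0 reads in frozen liver and 0.207 CPM in FFPE liver. The 6 genes of liver sinusoid and stellate cells summed to 312 and 316 CPM in the 2 liver libraries and to at most 131 CPM in any other library. Their part in the levels of the factors was not tested. In bulk tissue, fewer cells of a type and less RNA per cell cannot be told apart.

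Pax8 (Entrez 18510, chr2:24420560-24475599, minus strand) had 709 reads in frozen kidney and 1115 in FFPE kidney, at 41.5 and 50.5 CPM. FFPE brain held 14 reads (0.782 CPM), FFPE liver 2 and FFPE heart 1, and all 3 frozen libraries outside the kidney held 0. Kidney and the other organs were far apart, and the FFPE brain library was the highest of the rest. Frozen kidney was at least 349-fold above brain, 142-fold above heart and 144-fold above liver, and FFPE kidney was 64.6-fold over FFPE brain (38.4 to 119). The fitted kidney minus brain difference was 8.50 ± 1.12 (SE, log2, limma adjusted p = 2.53e-04), a description since Pax8 passed the filter through kidney alone. Without frozen brain, Pax8 was called lower in heart than in brain (-2.88, limma adjusted p = 0.0264) and in liver than in brain (-2.60, 0.0308), calls in which brain is the FFPE library alone, assumed to vary like the other organs. Pax8 shares exon bases with Gm13415, a transcript of the opposite strand that is not a row of the table, and no source used here gives the strand setting of the counting, so reads of the pair cannot be told apart.

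Levels of different factors were compared per kilobase of exon, in CPM per kb. The length merges the exons of all annotated transcripts of a gene, 5 for Tbx20, and which transcripts were read is not known. In heart the order was Gata4 (11.0 frozen, 13.9 FFPE), Nkx2-5 (9.53 and 10.7), Tbx20 (7.51 and 9.44) and Tbx5 (2.44 and 6.42), the same in both libraries. On this merged length Tbx20, first by reads, was behind Gata4 and Nkx2-5, an order that a shorter transcript could change. In liver Foxa3 led with 18.2 frozen and 8.42 FFPE, followed by Foxa2 with 4.17 and 4.83, Gata4 with 3.17 and 3.41, Onecut1 with 1.47 and 3.12 and Tbx20 with 0.304 and 0.505. Gata4 thus stood above Onecut1 in both liver libraries and Tbx20 below it. Pax8 in kidney had 6.85 and 8.34. The SE of these levels was not computed, since each rests on 1 library, and the order of neighbours was not tested.

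No factor was called between FFPE and frozen tissue, and within organs Tbx5, Foxa3 and Onecut1 stood more than 2-fold apart on the deposited scale. FFPE minus frozen, fitted over all 4 organs, was called higher for 0 factors (1.2% of all genes tested) and lower for 0 (2.18%), with 3 of 8 at an unadjusted limma p under 0.05: Tbx20 (2.22 ± 0.72, adjusted p = 0.13), Pax8 (2.18 ± 0.79, adjusted p = 0.164) and Tbx5 (1.45 ± 0.57, adjusted p = 0.195). That fit averages over organs in which a factor is near 0, so the difference within each organ is given with its counting interval. Each within-organ difference sets 1 library against 1 and has no replicate check. With voom on the recovered reads, 1 factor was called (Tbx5, 1.41, adjusted p = 0.0178), and with read totals as library size 2 were, Tbx20 and Pax8.

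In heart, Tbx5 was 2.63-fold higher in FFPE than in frozen tissue, log2 1.40 (95% counting interval 1.10 to 1.71), and 1.19% of 10026 genes with 30 reads or more in both libraries differed at least as far. Tbx20 differed by 0.33 (0.21 to 0.45), Gata4 by 0.34 (0.16 to 0.51) and Nkx2-5 by 0.17 (-0.12 to 0.46). So 1 of 4 heart factors differed by more than 2-fold, against 5.8% of all genes. With read totals as library size every heart difference was larger by 0.74, which put Tbx20 and Gata4 at 1.07. The FFPE heart was also the library with the atrial markers: Nppa had 180 reads in frozen and 7173 in FFPE heart, Sln 0 and 536, Myl7 0 and 1590, and Myl4 5 and 1959. Their part in the Tbx5 difference was not tested.

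In liver, Foxa3 was 2.15-fold lower in FFPE, log2 -1.11 (-1.34 to -0.87), with 2.76% of genes at least as far. Onecut1 was 2.12-fold higher, log2 1.08 (0.66 to 1.52), with 3.03% of genes at least as far. These 2 liver factors moved in opposite directions, while Foxa2 differed by 0.21 (-0.15 to 0.58), Gata4 by 0.10 (-0.23 to 0.44) and Tbx20 by 0.73 (0.17 to 1.32). Over 2-fold stood 2 of 5 factors in liver, against 3.99% of all genes. With read totals Foxa3 was at -0.82 and with quantile scaling Onecut1 at 0.96, each under 2-fold. In kidney, Pax8 differed by 0.28 (0.15 to 0.42), so 0 of 1 was over 2-fold, against 5.99% of all genes. The bile duct genes summed to 23.2 CPM in frozen and 34.2 CPM in FFPE liver, where 1 read is 0.0960 and 0.0689 CPM. By reads, Spp1 had 125 and 327, Sox9 96 and 121, Epcam 6 and 24, Krt19 6 and 14, Cftr 1 and 8 and Krt7 8 and 3. In frozen and FFPE kidney the same list summed to 238.5 and 268.8 CPM, so it is not particular to bile duct. The part of the tissue piece in the Onecut1 difference was not tested.

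**Figure D2:**
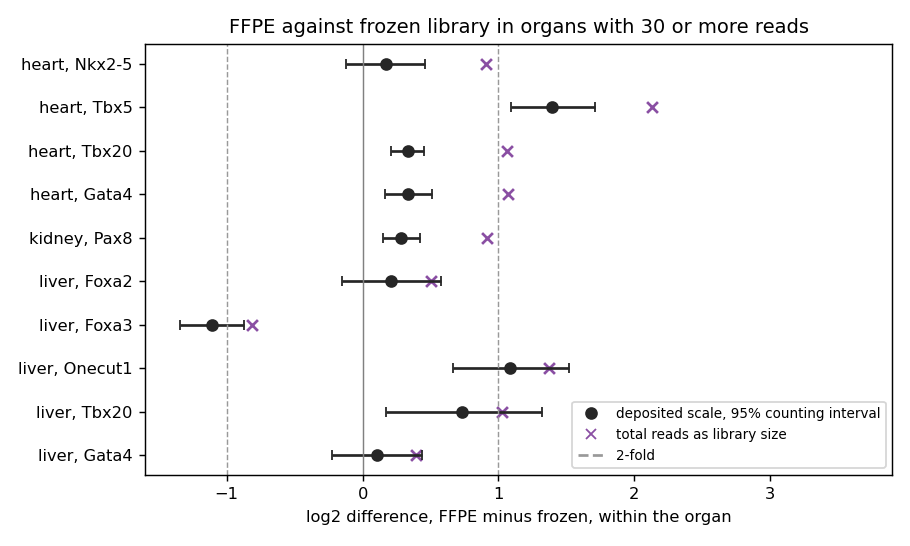
FFPE minus frozen difference (log2 of the CPM ratio, x axis) of each factor in each organ where both libraries hold 30 reads or more, with 95% counting intervals on the deposited scale (filled points), the value with read totals as library size (crosses) and dashed lines at 2-fold. On the deposited scale, Tbx5 in heart and Onecut1 in liver lie above 1 and Foxa3 in liver below -1, and the other 7 lie between 0.10 and 0.73.

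The same reads can be given as a share of the reads of an organ's factors, which does not use the library scaling. Shares of a whole are bound together, so a fall in one raises the others, and they are no separate evidence. Of the 551 reads of the 3 liver factors in frozen liver, Foxa3 took 69.9% (95% Wilson interval 65.9 to 73.6), Foxa2 18.7% (15.7 to 22.2) and Onecut1 11.4% (9.04 to 14.4). In FFPE liver, with 601 reads, the shares were 41.4% (37.6 to 45.4), 27.6% (24.2 to 31.3) and 31.0% (27.4 to 34.8). Foxa3 fell below a majority and Onecut1 passed Foxa2. Foxa2 rose in share, while its own FFPE minus frozen difference was log2 0.21 (-0.15 to 0.58). Of the 4 heart factors, Tbx5 took 7.09% of 1651 reads in frozen heart (5.95 to 8.43) and 13.9% of 2851 in FFPE heart (12.7 to 15.2). Tbx20 held the largest share in both, at 56.0% and 52.4%, and Gata4 held 26.8% and 25.2%. These intervals cover counting error only, within 1 library each. No molecular identifiers were used to set apart repeat reads of 1 molecule, so the intervals may be too narrow.

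**Figure D3:**
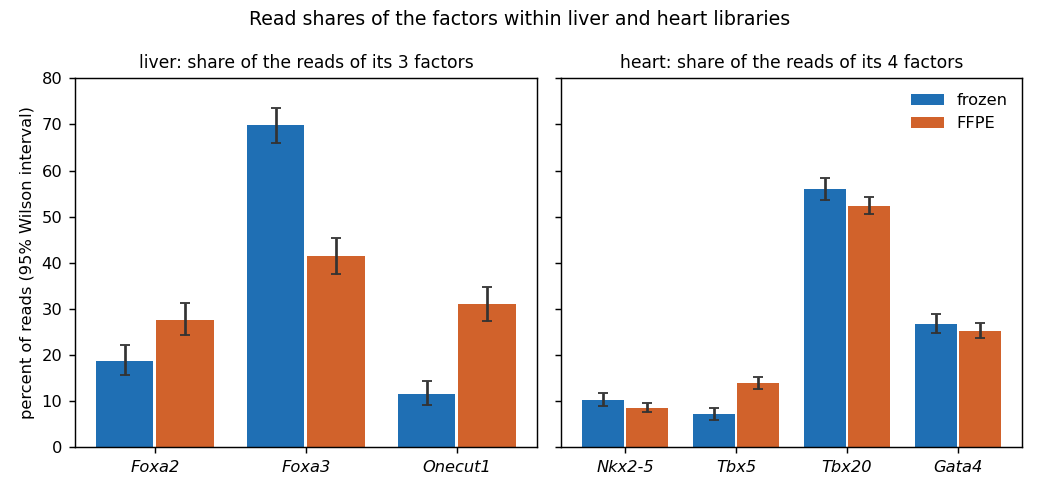
Share (percent, from 0) of the reads of the 3 liver factors in liver and of the 4 heart factors in heart, in the frozen and the FFPE library, with 95% Wilson intervals. In liver Foxa3 goes from 69.9% to 41.4% and Onecut1 from 11.4% to 31.0%, and in heart Tbx5 goes from 7.09% to 13.9%.

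Apart from Onecut1 in brain and from Tbx20 and Gata4 in liver, reads outside a factor's own organ lay mainly in FFPE libraries, at low levels. In brain, 7 factors had 0 reads in the frozen library, and 5 of them had a read in the FFPE library, 32 reads in all. Among genes with 0 reads in frozen brain and 30 or more in another frozen organ, 66.9% had a read in FFPE brain. In kidney 6 of 6 had one, 12 reads in all, against 74.1% of such genes. In heart 1 of 4 had a read, against 56.7%, and in liver 2 of 3, against 34.2%. The factors were not far from the background in brain and kidney, and the numbers are small in heart and liver. Of the 32 reads in FFPE brain 14 were Pax8 and 11 Tbx20. The cerebellar genes Gabra6 (0 reads frozen, 742 FFPE), Cbln3 (4 and 1069) and Fat2 (1 and 2341) stood high in that library. A list of 4 genes of the choroid plexus summed to 4.01 CPM in frozen and 13.7 CPM in FFPE brain, and to 533.8 and 438.5 CPM in kidney. By reads in frozen and FFPE brain, Kl had 63 and 169, Otx2 32 and 42, Kcnj13 3 and 26 and Folr1 3 and 9. Ttr, which the choroid plexus also expresses, had 40 and 1126 reads. The part of either tissue in the 32 reads of the factors was not tested. Among relatives of Pax8, Pax2 had 2 reads in frozen and 27 in FFPE brain and Pax3 had 0 and 21.

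Other factors known from each organ were counted from lists chosen with earlier results of these data known. Of 17 liver factors, 17 rose in liver over brain, 15 over heart and 14 over kidney, and 12 were higher than in all 3 organs. Of all genes tested, 30.8%, 25.6% and 18.0% were called higher in liver than in those organs. The list had 1 lower call against heart and 1 against kidney. It had a median liver minus brain difference of 7.34 on the log2 scale against -0.11 over all genes. Hnf4a, the nuclear receptor at the head of the hepatocyte network, had 442 and 507 CPM in frozen and FFPE liver and 401 and 334 CPM in kidney, with no call between these organs (limma adjusted p = 0.721). Onecut2, the relative of Onecut1, had 142 and 244 CPM in liver and 11.5 and 13.5 CPM in brain, with liver above brain as for Onecut1. Cebpa, a factor of hepatocyte metabolism, had 229 and 145 CPM in liver and at most 13.0 CPM elsewhere. Gata6 was lower in liver than in heart.

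Of 21 heart factors 19 were tested: 14 rose in heart over brain, 12 over kidney and 15 over liver, and 8 over all 3, where 24.7%, 18.8% and 27.5% of all genes were called higher in heart. The list had a median heart minus brain difference of 1.94 against -0.21 over all genes. Myocd, the coactivator of serum response factor, had 50.4 and 72.3 CPM in heart and at most 2.58 CPM elsewhere. Tead1 and Mef2a, factors of muscle genes in many tissues, were higher in heart than in each other organ by smaller steps, for Mef2a 0.63 over brain. Mef2c, with 44.1 and 148 CPM in brain, was not called between heart and brain. Gata6, the relative of Gata4, had 32.1 and 35.3 CPM in heart and 7.10 and 8.06 CPM in liver and 1.29 and 2.27 CPM in kidney, where Gata4 had 1 and 3 reads. Isl1 was lower in heart than in brain and Tbx2 lower in heart than in kidney, the 2 lower calls of the list.

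Of 29 kidney factors 25 were tested: 22 rose in kidney over brain, 17 over heart and 21 over liver, and 13 over all 3, where 27.2%, 22.2% and 23.2% of all genes were called higher in kidney. The list had 1 lower call, against liver. It had a median kidney minus brain difference of 4.51 against -0.04 over all genes. Pax2, the partner of Pax8, had 11.9 and 20.8 CPM in kidney, 1.51 CPM in FFPE brain and at most 0.0960 CPM in the other libraries. Tfcp2l1, a factor of the collecting duct, had 229 and 301 CPM in kidney and at most 12.1 CPM elsewhere.

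Genes known as targets of these factors followed their organs. Of 12 heart targets 11 rose over brain, 11 over kidney and 12 over liver (all genes 24.7%, 18.8% and 27.5%), with a median heart minus brain difference of 7.11 against -0.21 over all genes. They were led by Myh6, the cardiac myosin heavy chain, with 14330 and 14170 CPM in heart. Of 13 liver targets 12 rose over brain, 12 over heart and 9 over kidney (all genes 30.8%, 25.6% and 18.0%), with a median liver minus brain difference of 12.43 against -0.11. Among them was Pck1, an enzyme of glucose synthesis, at 1493 and 1913 CPM in liver and 515 and 511 CPM in kidney. Tfrc, the transferrin receptor, was lower in liver than in heart and kidney, the list's 2 lower calls. Of 8 kidney targets 6 rose over brain, 8 over heart and 7 over liver (all genes 27.2%, 22.2% and 23.2%), with a median kidney minus brain difference of 9.06 against -0.04. They were led by Umod, the urinary protein uromodulin, with 1330 and 723 CPM in kidney.

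**Figure D4:**
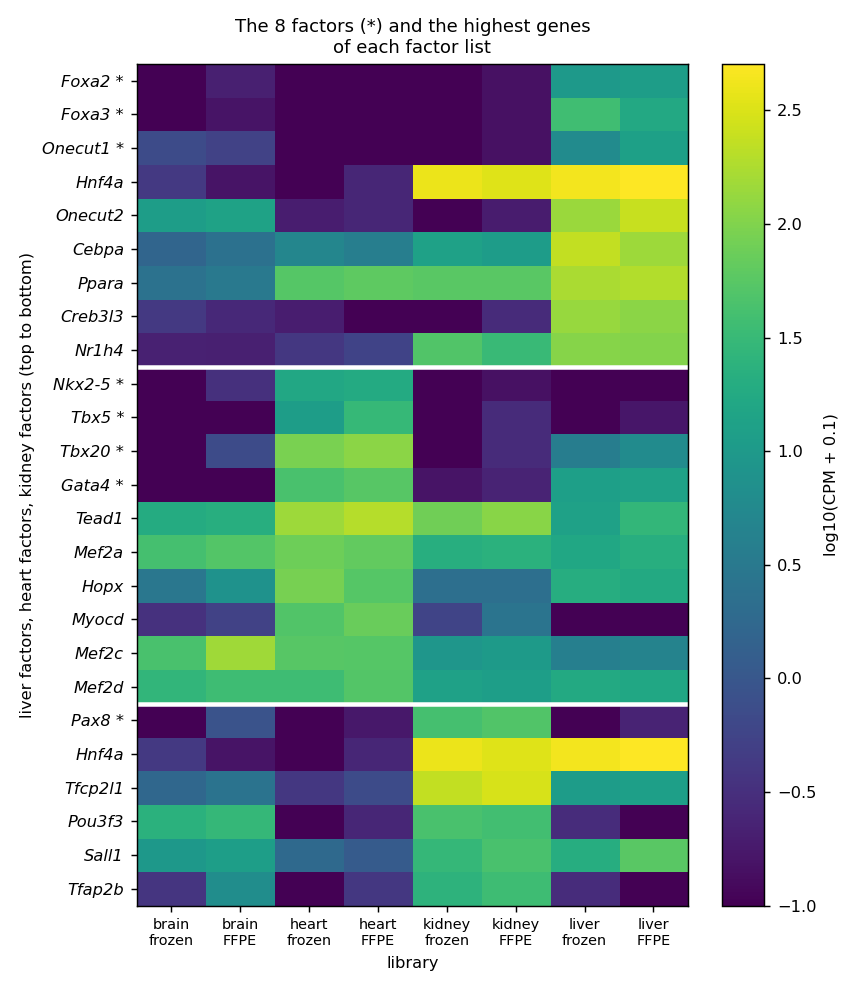
Level in each of the 8 libraries (columns), as the colour of log10 of CPM with 0.1 CPM added, of the 8 factors (starred rows) and the genes of highest level, at most 6 a list, from the liver, heart and kidney lists, in 3 blocks from top to bottom. Hnf4a is bright in kidney and liver alike, Onecut2 repeats the brain and liver pattern of Onecut1, and Myocd is bright in heart.

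The genes whose log2 values over the 8 libraries followed a factor most closely are given as a description, since all points share the same libraries and a gene read in 1 organ follows any other such gene. For such genes a few reads in the other libraries, many under the floor, weigh on the order, so a near rank marks no partner. Foxa3 was nearest to Colec10, a collectin (r = 0.998), to Cyp7a1, the rate-limiting enzyme of bile acid synthesis (0.996) and to Dnase2b (0.996). Colec10 and Cyp7a1 each had 0.0558 CPM in FFPE brain and 0.0453 CPM in FFPE kidney, which is 1 read each, as Foxa3 had. Foxa2 was nearest to 4930480G23Rik (0.998), Pla2g12b (0.997) and Serpina6, the corticosteroid-binding globulin. Onecut1, with its reads in brain, was nearest to Gdap2 (0.989), Sec14l2 and Il1rap. Nkx2-5 was nearest to Mov10l1 (0.997), Itga7 and Mybpc3, the cardiac myosin-binding protein with 1410 and 1550 CPM in heart. Tbx5 was nearest to Map3k20 (0.992), Ctla4 and Trim55. Tbx20, with heart above liver, was nearest to Ctla2b (0.990), Hand2 and Dlc1, and Hand2, a helix-loop-helix factor of the heart, had 17.5 and 20.9 CPM in heart and 4.13 and 3.79 CPM in liver. Gata4 was nearest to Stom (0.997), Gypc and Akt2, each highest in heart and next in liver. Pax8 was nearest to Slc5a9 (0.993), a sugar transporter, Gm9926 and Hoxc6.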

How the data were processed

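Reads were aligned with HISAT2 to mm10, counted with featureCounts and analysed with limma, per the submitters' processing notes; no source used here gives versions, annotation or strand setting. The deposited table holds log2 values per gene and library, log2 CPM with 0.5 reads added, on a scaled library size made by the authors. Undoing that step gave whole reads for 100% of values (tolerance 1e-06).

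Groups came from the labelled organ and preservation. limma 3.58.1 (R 4.3.3) was fitted with a mean-variance trend on the log2 values, with organ and preservation as additive terms over all 8 libraries (3 residual degrees of freedom), for genes above 1 CPM in at least 2 libraries. P-values were adjusted by Benjamini-Hochberg over 15819 genes and called under 0.05. Data were simulated for heart minus brain over those 15819 genes, with changed genes drawn only from those whose mean log2 value was above 1 CPM. Of these, 10% of 100 genes changed by 1 log2 unit and 62% of 100 changed by 2 were recovered. The 6 false calls were 7.69% of calls. Recovery for genes of lower mean was not simulated. No other gene was changed, while 9175 genes were called for heart minus brain in the data. Counting noise was also drawn on top of a residual spread that already held it. The recovered shares therefore do not carry over to the calls made here. The main fit used the deposited log2 values, and voom on the recovered reads was run as an alternative.

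Folds against a library at 0 reads are bounds at a floor of 3 reads per library. They leave out the counting error of the own organ and are not 95% limits. Ratios and shares carry 95% exact and Wilson intervals for counting error only. Named genes were the 8 factors, the 3 genes of highest Pearson r with each, and genes from the 6 of highest level in each list; relatives and marker genes were read out beside them, and genes named as lower calls were chosen after their values were seen. Some genes of the lists are counted but not reported here by name. The factors and lists were chosen with earlier results of these data known. Alternatives were no filter, a filter of 2 CPM, 1 CPM added before the log, quantile scaling, read totals, no trend, voom on the recovered reads, and each library left out. Exon lengths came from GENCODE M21 (24732 of 27179 genes matched) and promoters from RefSeq.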

Additional observations from a re-analysis of the deposited data

How the results depend on the processing

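Of 31 called differences of a factor between organs, 24 set a factor's own organ against another. Those of the 6 factors that passed the filter only through their own organ had to differ, so their calls say little about stability. Tbx20 and Gata4 passed through liver as well. Over the 31 and 15 alternatives, 10 values lost the call and 0 reversed. The 10 were Onecut1 in heart and kidney minus brain and Gata4 in kidney minus brain with 1 CPM added, Tbx20 in heart minus liver without either of 2 libraries, and Gata4 in heart minus liver under 5 alternatives. With 1 CPM added, 1 factor was called for kidney minus brain in place of 3. Over all genes, heart minus kidney gave 6474 calls and 4202 to 6275 with a library left out, lowest without frozen kidney. FFPE minus frozen gave 535 calls, 158 with quantile scaling, 3725 with read totals, 1407 with voom, 0 without the trend, and 0 to 397 with a library left out. It called 0 factors, but 2 with read totals (Tbx20 2.69, adjusted p = 0.0125, and Pax8 2.65, 0.0208) and 1 with voom (Tbx5 1.41, 0.0178).

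Read totals as library size moved the median of all genes, for heart minus brain from -0.21 to -1.54, for heart minus liver from 0.08 to -0.30 and for FFPE minus frozen from 0.07 to 0.54. Relative to that median, Gata4 in heart minus liver was 1.83 on both scales. The share of calls that were higher went from 42.6% to 13.1% for heart minus brain, from 48.1% to 31.7% for kidney minus brain, from 45.9% to 23.1% for liver minus brain, from 45.9% to 16.2% for heart minus kidney, from 51.8% to 39.1% for heart minus liver, from 56.3% to 74.9% for kidney minus liver and from 35.5% to 98% for FFPE minus frozen. Quantile scaling gave 54.4% for heart minus brain. Within organs, read totals added 0.74 in heart, 0.63 in kidney and 0.29 in liver to every FFPE minus frozen difference, so Foxa3 was -0.82, Onecut1 1.37 and Tbx5 2.13. The additive fit compares FFPE with frozen tissue paired by organ, and the labels give no replicate number for any other block. Depth limits levels under 3 reads.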
